A study of Rattus norvegicus with 8 samples.

Results

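The genes described here carry peptides to the cell surface on class I histocompatibility molecules, and they comprise B2m, Tap1, Tap2, Tapbp, Psmb8, Psmb9, Psmb10, Psme1, Psme2 and Nlrc5. They were found as the probe sets whose only gene symbol in the platform annotation was one of these 10 names, which gave 13 of 31042 probe sets, with 2 probe sets each for B2m, Tap1 and Psme1 and 1 for each of the others. Transcript levels were measured in cirrhotic livers of male Wistar rats on 8 Affymetrix Rat2302 arrays, which are microarrays of short oligonucleotide probes. The 4 treated rats received an antiangiogenic treatment, meant to limit the growth of new blood vessels, of which the labels name neither the compound nor the dose. The 4 comparison rats are labelled as given vehicle, while the series design calls them untreated. All of the rats had cirrhosis from inhaled carbon tetrachloride, a liver toxin, and the labels' protocols give phenobarbital at 0.3 g/L in the drinking water, an inducer of drug metabolism. The comparison asks how transcript levels in the cirrhotic liver differ with the treatment. Whole liver was measured, so that fewer cells of a type and less RNA per cell cannot be told apart.

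Nearly every nucleated cell shows fragments of its own proteins on class I molecules, which killer T cells inspect. The proteasome cuts proteins into peptides, the transporter made of Tap1 and Tap2 moves them into the endoplasmic reticulum, tapasin (Tapbp) holds the empty class I molecule beside the transporter, and B2m is the light chain of the finished molecule. Interferon gamma induces 3 replacement catalytic subunits, Psmb8 (LMP7), Psmb9 (LMP2) and Psmb10 (MECL-1), which take the places of Psmb5, Psmb6 and Psmb7 and turn the proteasome into the immunoproteasome. Psme1 and Psme2 form the PA28 cap that opens the proteasome and alters the peptides released, and Nlrc5 is a transactivator of class I genes. Hepatocytes hold little of this machinery at rest and more of it in inflamed liver, and leukocytes and sinusoidal endothelium hold much of it.

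Most promoters of these genes hold a short element in the window searched, and it is shown here for that reason. The interferon-stimulated response element was searched on both strands as its core, 2 GAAA half-sites with 2 bases of any kind between them, in 300 bases around each RefSeq transcript start (assembly GRCr8, from 250 bases before the start to 50 after it), and the table held 9 of the 10 members, without Nlrc5. The core was present in 7 of these 9 promoters, against 3.92% of all 33469 promoters in the table. It was in 0 of the 3 promoters of Psmb5, Psmb6 and Psmb7, and most promoters in the table lack it too. Among other proteasome genes it was in 2 of 10 promoters of the 20S core and 1 of 18 of the 19S cap. For other caps and assembly it was in 1 of 9. Psmb9 and Psme1 had no match within this window. The 2 promoters given whole are those of Tap1 and Psmb9, adjacent genes read in opposite directions whose windows overlap by 44 bases, and the others are given from 25 bases before the first match to 25 after the last. Each is written 5′ to 3′ on the strand of its gene, with the core or its reverse complement in capitals.
Psmb9, chr20:4668750-4669049, plus strand: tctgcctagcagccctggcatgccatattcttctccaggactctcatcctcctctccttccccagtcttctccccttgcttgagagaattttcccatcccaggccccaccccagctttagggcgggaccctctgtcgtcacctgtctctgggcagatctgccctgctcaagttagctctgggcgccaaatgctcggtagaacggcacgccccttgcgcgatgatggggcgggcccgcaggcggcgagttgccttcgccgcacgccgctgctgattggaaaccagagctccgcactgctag
Tap1, chr20:4668494-4668793, minus strand: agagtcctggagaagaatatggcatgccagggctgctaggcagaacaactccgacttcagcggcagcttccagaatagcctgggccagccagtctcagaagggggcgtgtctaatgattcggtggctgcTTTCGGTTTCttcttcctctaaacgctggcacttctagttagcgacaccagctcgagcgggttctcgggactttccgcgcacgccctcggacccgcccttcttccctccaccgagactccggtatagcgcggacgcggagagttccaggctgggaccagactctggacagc
Tap2, chr20:4652303-4652362, minus strand: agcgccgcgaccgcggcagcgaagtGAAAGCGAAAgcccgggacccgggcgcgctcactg
Psmb8, chr20:4657001-4657060, minus strand: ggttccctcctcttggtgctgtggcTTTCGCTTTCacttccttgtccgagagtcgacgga
Tapbp, chr20:4967863-4967928, minus strand: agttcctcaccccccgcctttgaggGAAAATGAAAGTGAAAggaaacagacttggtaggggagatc
B2m, chr3:129549155-129549214, plus strand: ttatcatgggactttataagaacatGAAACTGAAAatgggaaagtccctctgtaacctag
Psmb10, chr19:50743275-50743390, minus strand: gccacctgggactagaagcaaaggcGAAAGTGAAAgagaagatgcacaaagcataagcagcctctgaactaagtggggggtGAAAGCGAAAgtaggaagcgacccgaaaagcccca
Psme2, chr15:33052770-33052829, minus strand: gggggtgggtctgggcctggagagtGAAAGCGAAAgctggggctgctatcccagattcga
In Tap1 and Psmb8 the element lay in reverse orientation to the gene, starting 121 and 4 bases before the transcript start. In Tap2, Psme2 and B2m it started 41, 53 and 150 bases before the start. Psmb10 held 2 matches, 73 and 17 bases before the start, and the 2 of Tapbp, 26 and 20 bases before the start, overlap each other. Other elements were less common among the members. The kB motif was present in B2m, Tap1 and Tapbp (3 of 9, against 4.18% of all promoters), the STAT-binding core TTCNNNGAA in Psmb8 (1 of 9, against 8.87%), and CCAAT in B2m, Psmb8 and Psmb9 (3 of 9, against 37.5%). Both strands were searched for each, and a match describes letters in a window and not a site in use.

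**Figure D1:**
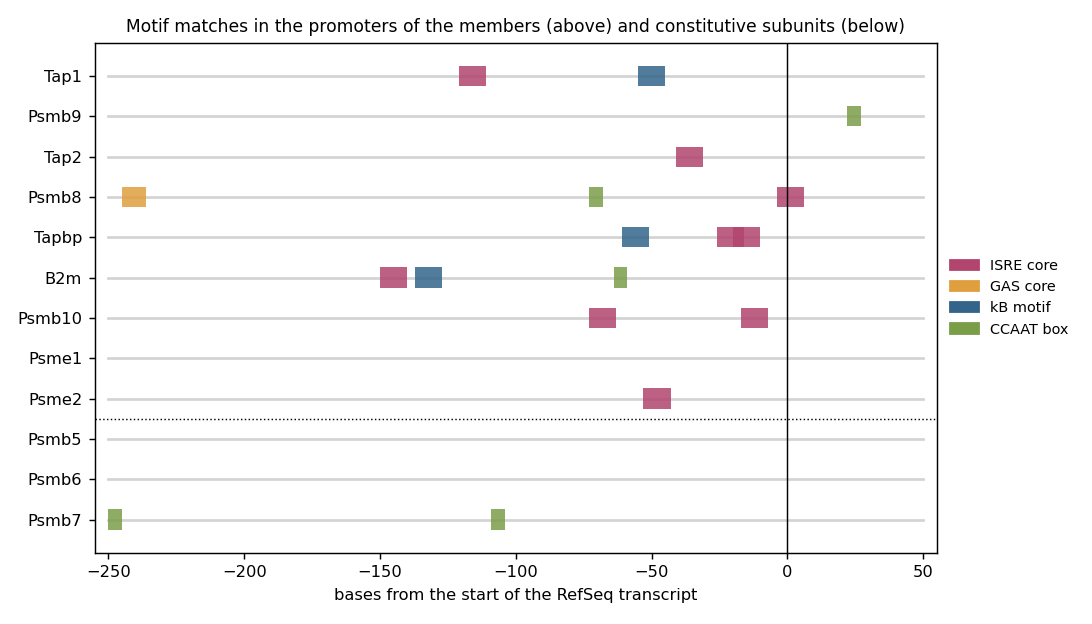
Matches of 4 motifs in the 300-base promoters of 9 members (above the dotted line) and of Psmb5, Psmb6 and Psmb7 (below it), by their distance in bases from the RefSeq transcript start. The interferon-stimulated response element core lies in 7 of the 9 member promoters and in 0 of the 3 constitutive ones.

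The arrays had features that bear on every value. Treated 3 and vehicle 4 were nearly the same array, with values that correlated at r = 0.996 over all probe sets, against 0.956 to 0.988 in the 27 other pairs, so that each group holds a near-copy from the other. Differences without both of them are therefore given for the members, most of the named genes and the list medians that follow. By the levels of the bacterial spike-in controls the arrays were clustered into 3 sets, a number that was fixed in the clustering. The sets are called hybridization groups here, although the labels name no batch. The first holds treated 1 and vehicle 1, the second treated 2 and 4 and vehicle 2 and 3, and the third the near-identical pair. Median log2 intensities lay between 5.16 and 5.30 on the 8 arrays, and the lower quartile between 3.74 and 3.91. Values below are log2 intensities made with robust multi-array average (RMA), differences are treated minus vehicle, and values after ± are SDs over 4 arrays. Intensities of different probe sets do not rank genes by abundance.

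No member probe set differed between treated and vehicle livers beyond the spread between arrays. In limma with Benjamini-Hochberg adjustment over all 31042 probe sets, 0 of 13 passed an adjusted p of 0.05, where the share of all probe sets that passed was 0%. The smallest adjusted p over the whole table was 0.979, and adjusted p-values of the members ran between 0.979 and 0.997. At an unadjusted p of 0.05, 0 of 13 passed, where 2.04% of all probe sets were lower and 1.89% higher in treated livers. The groups overlapped at every one of the 13, where 0.58% of all probe sets lay without overlap on the lower side and 1.09% on the higher side. The treated mean was the lower one at 9 of 13 (median difference −0.07), against 45.3% of all probe sets (median 0.02). With the brightest probe set of each gene it was lower for 7 of 10 genes (median −0.13), against 48.4% of 14217 genes (median 0.01), and among the 10 probe sets with a mean of at least 6 it was lower at 8, against 46.8% of all such probe sets. Differences lay between −0.41 (Psmb9) and 0.07 (the dim probe set of Psme1), with unadjusted p between 0.160 and 0.877. Without the near-identical pair they lay between −0.50 and 0.14, the smallest unadjusted p was 0.0684 (Tap1) and the smallest adjusted p 0.792 by limma on 6 arrays. On these 6 arrays the differences were −0.12 and −0.11 for the B2m probe sets, −0.44 for Tap2, −0.20 for Tapbp, −0.50 for Psmb9, 0.05 for Psmb10, −0.07 for the brighter Psme1 probe set and 0.01 for Psme2.

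**Figure D2:**
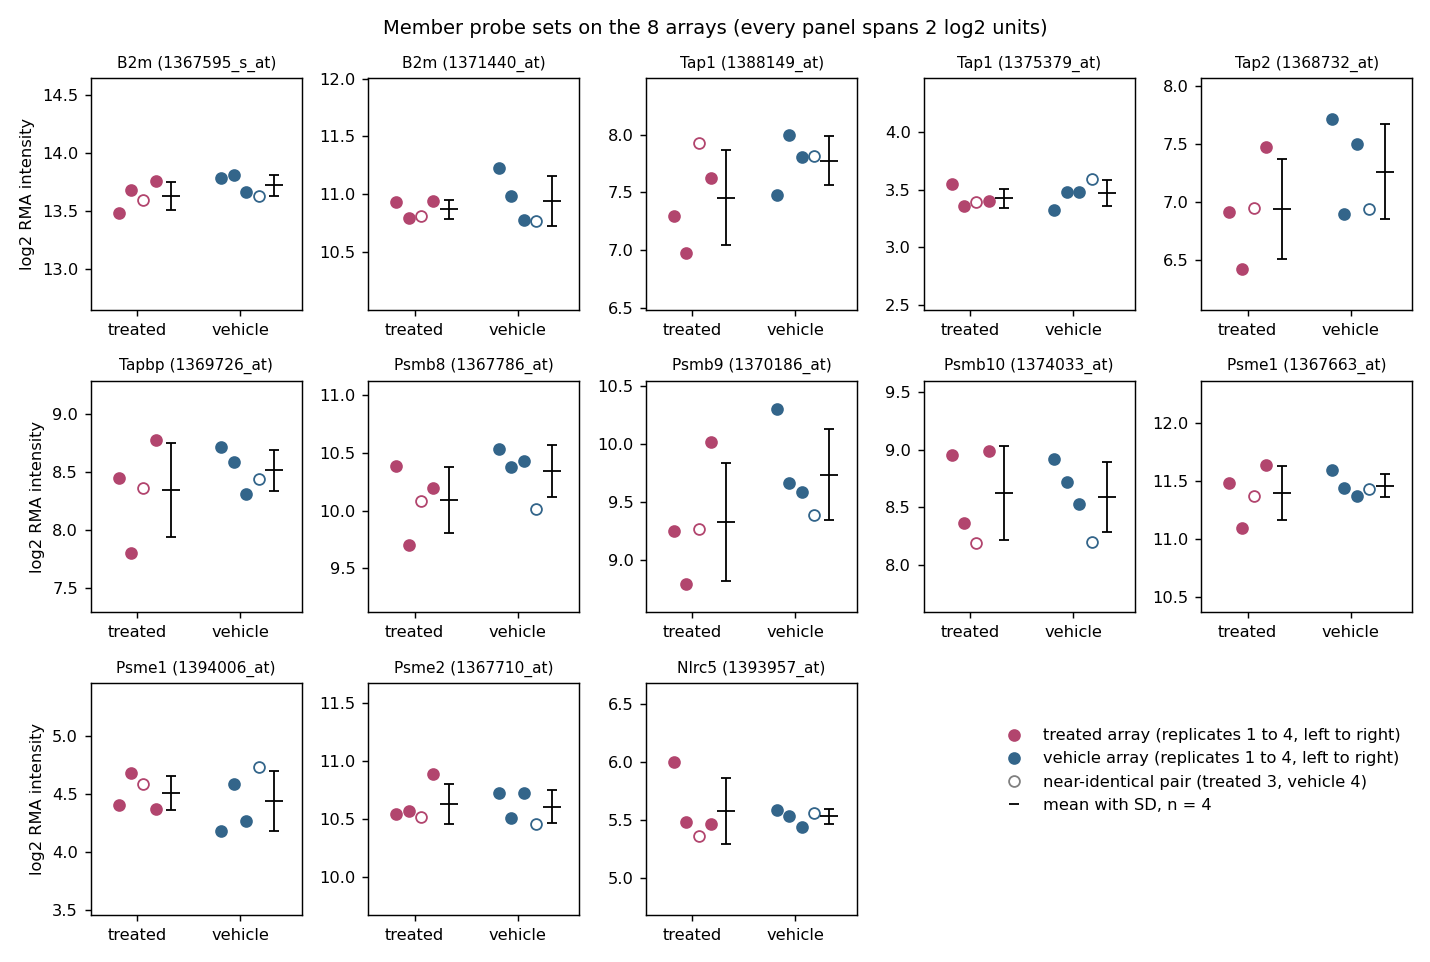
Log2 RMA intensity of each of the 13 member probe sets in 4 treated livers (left, red) and 4 vehicle livers (right, blue), with open circles for the near-identical pair and bars for the mean and SD (n = 4). The groups overlap in every panel, and treated 2 is the lowest array for Tap1 (1388149_at), Tap2, Tapbp, Psmb8, Psmb9 and the brighter probe set of Psme1.

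B2m, the light chain common to all class I molecules, was among the brightest transcripts on the arrays. Its probe set 1367595_s_at read 13.48, 13.69, 13.59 and 13.76 in treated livers 1 to 4, against 13.79, 13.81, 13.67 and 13.63 in vehicle livers 1 to 4. Both groups were high and the arrays lay close together. The means were 13.63 ± 0.12 in treated and 13.72 ± 0.09 in vehicle livers, and the 95% interval of the difference ran from −0.33 to 0.14 (limma adjusted p = 0.979). This interval corresponds to a treated level between 79.3% and 110% of the vehicle level. The second probe set, 1371440_at, averaged 10.87 ± 0.08 in treated and 10.94 ± 0.22 in vehicle livers, a difference of −0.07 that was 0.03 without vehicle 1.

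The peptide transporter had lower means in treated livers for both of its subunits, within the spread. Tap1 (1388149_at), the first subunit, read 7.30, 6.97, 7.93 and 7.63 in treated livers and 7.48, 8.00, 7.81 and 7.81 in vehicle livers. Treated 1 and 2 lay below every vehicle array, treated 3 and 4 lay above vehicle 1, and the 3 other vehicle arrays stood close together. The Tap1 difference was −0.32 (SE 0.21, 95% interval −0.79 to 0.15, limma adjusted p = 0.979), −0.46 without the near-identical pair and −0.16 without treated 2. The other Tap1 probe set, 1375379_at, stayed between 3.33 and 3.59 on all arrays, below the lower quartile of every array, and carries no measurable difference. Tap2 (1368732_at), the second subunit, of which allelic forms in the rat differ in the peptides they deliver, read 6.91, 6.42, 6.95 and 7.48 in treated livers and 7.72, 6.89, 7.50 and 6.94 in vehicle livers. Treated 4 stood with the higher vehicle arrays, 1 and 3, and treated 1 and 3 with vehicle 2 and 4. The Tap2 difference was −0.32 (SE 0.26, 95% interval −0.91 to 0.26), −0.50 without treated 4 and −0.15 without treated 2.

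Tapasin had its lowest value on the same array as both transporter subunits. Tapbp (1369726_at), the chaperone that edits peptide loading, read 8.44, 7.80, 8.36 and 8.77 in treated livers, against 8.72, 8.58, 8.31 and 8.44 in vehicle livers. Treated 2 was lowest by a wide margin, and treated 4 was the highest of all 8. The Tapbp difference was −0.17 (SE 0.20, 95% interval −0.62 to 0.28), and it was 0.01 without treated 2 and −0.31 without treated 4.

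The differences of the immunoproteasome subunits lay between −0.41 and 0.04. Psmb9 (1370186_at) had the lowest difference of all members, and read 9.24, 8.79, 9.27 and 10.02 in treated livers, against 10.30, 9.66, 9.59 and 9.39 in vehicle livers. Treated 1, 2 and 3 lay below every vehicle array, and treated 4 lay above all of them except vehicle 1. The Psmb9 means were 9.33 ± 0.51 in treated and 9.73 ± 0.39 in vehicle livers, a difference of −0.41 (SE 0.28, 95% interval −1.03 to 0.22, limma adjusted p = 0.979). That is a treated level of 75.5% of the vehicle level, with an interval between 48.9% and 117%. The Psmb9 difference was −0.63 without treated 4 and −0.22 without vehicle 1. Psmb8 (1367786_at) read 10.39, 9.70, 10.08 and 10.19 in treated livers, against 10.54, 10.38, 10.43 and 10.02 in vehicle livers. Vehicle 1, 2 and 3 and treated 1 stood close together above the other treated arrays, and vehicle 4 stood below all treated arrays but treated 2. The Psmb8 difference was −0.25 (SE 0.17, 95% interval −0.64 to 0.14), −0.35 without the near-identical pair and −0.12 without treated 2. Psmb10 (1374033_at) read 8.95, 8.37, 8.20 and 8.99 in treated livers, against 8.92, 8.72, 8.53 and 8.20 in vehicle livers. Treated 1 and 4 and vehicle 1 were high, the near-identical pair was low, and the means were 8.63 ± 0.41 in treated and 8.59 ± 0.30 in vehicle livers. Its interval, from −0.47 to 0.54, is too wide to show that Psmb10 was alike in the groups.

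The PA28 cap and the class I transactivator had means close to each other in the groups. Psme1 (1367663_at), the alpha subunit of the cap, read 11.48, 11.09, 11.37 and 11.64 in treated livers, against 11.60, 11.44, 11.37 and 11.43 in vehicle livers, and its difference of −0.06 was 0.04 without treated 2. The second Psme1 probe set, 1394006_at, was dim, between 4.18 and 4.73 on all arrays, with a difference of 0.07. Psme2 (1367710_at), the beta subunit, read 10.54, 10.57, 10.52 and 10.89 in treated livers, against 10.73, 10.51, 10.73 and 10.46 in vehicle livers. Treated 4 stood apart from the 3 other treated arrays, and without it the Psme2 difference was −0.06 in place of 0.02. Nlrc5 (1393957_at) read 6.001, 5.48, 5.36 and 5.47 in treated livers, against 5.58, 5.54, 5.44 and 5.56 in vehicle livers. Treated 1 was the only array near 6, and the difference of 0.05 was −0.10 without it. The 95% interval for Psme2 ran from −0.26 to 0.31 and for Nlrc5 from −0.29 to 0.38.

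**Figure D3:**
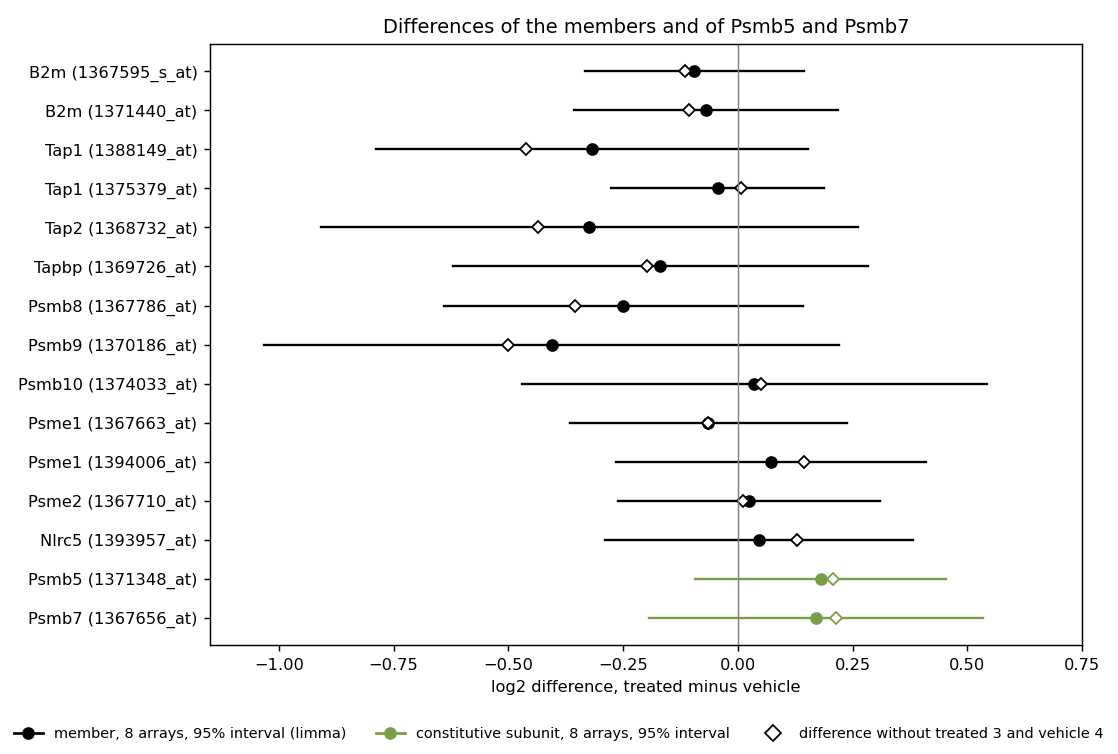
Log2 difference of each member probe set, treated minus vehicle, with its 95% interval (limma, 8 arrays), and the difference without treated 3 and vehicle 4 as open diamonds. Psmb5 and Psmb7 stand at the bottom in green, and every interval holds 0.

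The members were also described by their place in the genome. Tap2, Psmb8, Tap1 and Psmb9 are 4 consecutive genes of chromosome 20 in RefSeq, between RT1-DOb and RT1-DMb of the class II region, and Tapbp lies 34 genes after Tap2 on the same chromosome. All 5 had a lower treated mean, with differences between −0.41 and −0.17 (median −0.32, and −0.44 without the near-identical pair). Of the 5 members on other chromosomes, B2m, Psmb10, Psme1, Psme2 and Nlrc5, 2 had a lower treated mean. Their differences lay between −0.10 and 0.05 (median 0.02, and 0.01 without the near-identical pair). This division was drawn after the values were seen, and the difference between its sides was not tested. Centred on their means over the 8 arrays, the chromosome 20 genes averaged −0.12, −0.64, −0.06 and 0.24 in treated livers 1 to 4 and 0.37, 0.12, 0.15 and −0.06 in vehicle livers 1 to 4. The lowest average was that of treated 2, and treated 4 exceeded vehicle 2, 3 and 4, so that the groups overlapped here too. The genes on other chromosomes averaged 0.12, −0.14, −0.17 and 0.17 in treated and 0.15, 0.03, −0.03 and −0.12 in vehicle livers.

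**Figure D4:**
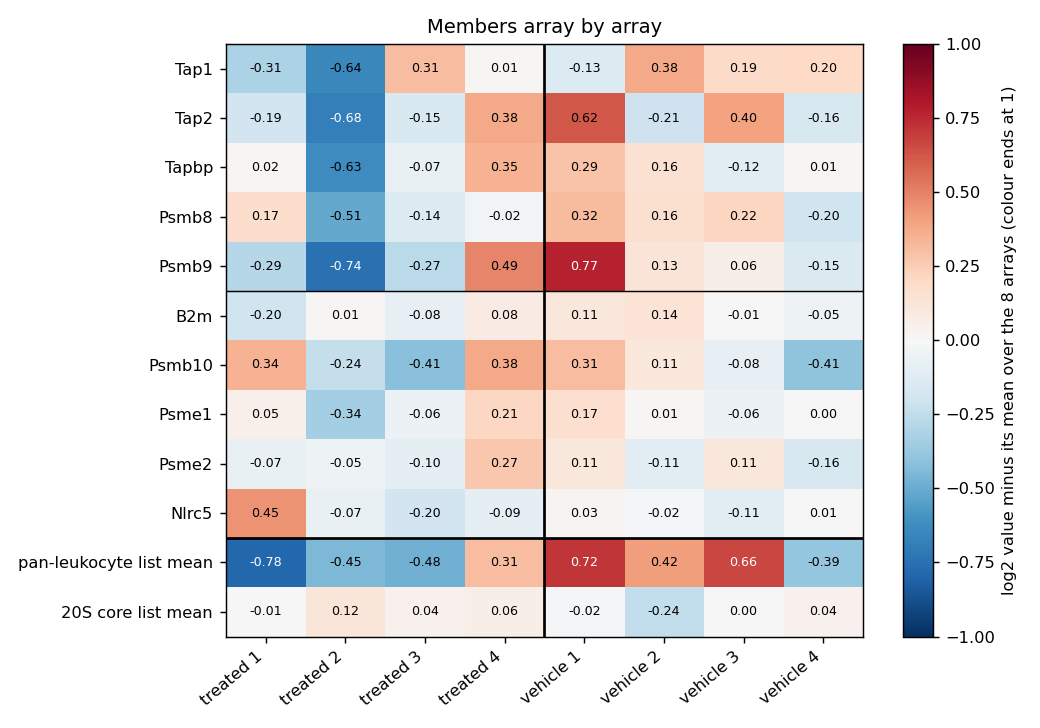
Log2 value of each member's brightest probe set minus its mean over the 8 arrays, for treated livers 1 to 4 (left) and vehicle livers 1 to 4 (right), with the 5 genes of chromosome 20 above the thin line. The 2 bottom rows give the mean of the pan-leukocyte list and of the 20S core list, centred in the same way. Treated 2 is low for all 5 chromosome 20 genes, and Psmb9 ranges from −0.74 on treated 2 to 0.77 on vehicle 1.

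The same few arrays were lowest or highest for many of the members. With the brightest probe set per gene, treated 2 was the lowest of the 8 arrays for 6 of 10 members, and treated 4 the highest for 4 and vehicle 1 for 3. Treated 3 and vehicle 4, the near-copies, differed by between −0.20 and 0.11 over the 13 probe sets, with 8 of 13 lower on treated 3. By hybridization group, the Psmb9 difference was −1.06, −0.22 and −0.12, in the order in which the groups are named above. That of Tap2 was −0.81, −0.25 and 0.01, that of Psmb8 −0.15, −0.46 and 0.06, and that of Tap1 −0.18, −0.60 and 0.11. The first and the third of these groups hold 1 array of each kind, so these values have no error of their own.

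Against the subunits they replace, Psmb8 and Psmb10 had lower differences, without passing the test, and for Psmb10 the direction turned with single arrays. Psmb5 (1371348_at), the constitutive chymotrypsin-like subunit, read 11.13, 11.15, 10.97 and 10.98 in treated livers, against 10.93, 10.63, 11.08 and 10.87 in vehicle livers (difference 0.18, 95% interval −0.09 to 0.45, 0.21 without the near-identical pair and 0.098 without vehicle 2). The log2 ratio of Psmb8 to Psmb5 within an array was −0.74, −1.44, −0.89 and −0.79 in treated livers, against −0.40, −0.25, −0.64 and −0.85 in vehicle livers. The ratio was lower in each treated liver than in vehicle 1, 2 and 3, and only vehicle 4 reached into the treated range. The difference of the ratio was −0.43 (exact two-sided permutation p = 0.0857, adjusted over 2 pairs 0.171, n = 4 per group), where the smallest p that the 70 assignments allow is 0.0286. With 1 array left out, the difference ran from −0.54 to −0.27 and the exact permutation p from 0.0286 to 0.2. The lowest of these p-values came without vehicle 4, the only overlapping array, whose removal alone sets p to its smallest possible value. Without treated 2 the difference was −0.27 (exact permutation p = 0.171), and with the mean of a gene's probe sets it was −0.37 (exact permutation p = 0.171). Without both near-identical arrays it was −0.56 with p = 0.1 by exact permutation, the smallest possible with 3 arrays per group. Psmb7 (1367656_at), the constitutive trypsin-like subunit, read 10.07, 10.26, 10.40 and 10.17 in treated livers, against 9.88, 9.73, 10.25 and 10.36 in vehicle livers (difference 0.17, 0.21 without the near-identical pair and 0.059 without vehicle 2). The ratio of Psmb10 to Psmb7 differed by −0.13 (exact permutation p = 0.657, n = 4 per group), and by −0.16 without the near-identical pair. With 1 array left out it ran from −0.37 to 0.070, with the sign reversed in 3 of 8 cases. For Psmb9 the ratio to Psmb6 was not analysed here.

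The rest of the proteasome had slightly higher means in treated livers. Over all 14217 genes, by their brightest probe set, 48.4% had a lower treated mean (median difference 0.01). Of 11 other subunits of the 20S core, which holds the catalytic chamber, 10 had a higher treated mean (median difference 0.09). Of 21 genes for subunits or assembly chaperones of the 19S cap, which unfolds tagged proteins, 19 did (median 0.10). Without the near-identical pair the medians were 0.12 and 0.09. These counts were 9 of 11 and 16 of 21 after quantile normalization, and 11 of 11 and 21 of 21 after centring each array on its median, which adds 0.05 to every difference. None of these genes passed an adjusted p of 0.05 in limma (0 of 32). On the higher side 1 had an unadjusted p under 0.05, where 277 of 14217 genes did by their brightest probe set. Leaving out vehicle 2, the array with the lowest 20S and 19S values, lowered the medians to 0.05 and 0.02. Psmd1 (1369992_at), a scaffold of the cap, averaged 8.94 ± 0.29 in treated and 8.52 ± 0.25 in vehicle livers, and was the 1 gene under the unadjusted threshold (difference 0.42, 0.53 without the near-identical pair, unadjusted p = 0.0425, limma adjusted p = 0.979). Psmd5 (1372267_at), an assembly chaperone of the cap, averaged 9.25 ± 0.16 and 8.87 ± 0.39 in treated and vehicle livers, with vehicle 1 at 8.34. The Psmd5 difference was 0.39, 0.46 without the near-identical pair and 0.21 without vehicle 1. In the core, Psma4 (1367837_at) differed by 0.24 and Psma5 (1387884_at) by 0.17, by 0.36 and 0.20 without the near-identical pair, and by 0.16 and 0.10 without vehicle 2. Of 8 measured genes of other caps, assembly and control, 6 had a higher treated mean (median 0.05, 0.08 without the near-identical pair and −0.01 without vehicle 2), led by Nfe2l1 (1373278_at), the transcription factor that raises proteasome genes when proteasome activity is short (0.27, 0.34 without the near-identical pair and 0.17 without vehicle 1), and the assembly chaperone Psmg1 (1371385_at, 0.23, 0.37 without the near-identical pair and 0.13 without vehicle 2).

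Peptide trimming and loading enzymes showed no common direction, with 6 of 12 lower and a median of 0.02, which was 0.04 without the near-identical pair and −0.03 without vehicle 2. The 2 with the smallest unadjusted p had lower treated means and, like tapasin, their lowest value on treated 2. Pdia3 (1398788_at), the oxidoreductase bound to tapasin in the loading complex, read 11.89, 11.58, 12.21 and 12.26 in treated livers, against 12.21, 12.09, 12.58 and 12.21 in vehicle livers (difference −0.29, −0.38 without the near-identical pair and −0.15 without treated 2). Erap1 (1368356_a_at), the aminopeptidase that trims peptides in the endoplasmic reticulum, read 10.98, 10.28, 10.81 and 11.22 in treated livers, against 11.20, 11.08, 11.28 and 10.77 in vehicle livers (difference −0.26, −0.36 without the near-identical pair and −0.08 without treated 2). Neither passed in limma (adjusted p = 0.979 for both).

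The class I heavy chains, which bind the peptide, could not be read as one gene. Probe sets ending in _x_at or _s_at can bind several of these near-identical RT1 genes, so their names are uncertain. Of 17 measured genes of this list and its relatives, 10 had a higher treated mean (median 0.11, 0.10 without the near-identical pair and 0.03 without treated 1), and 0 passed an adjusted p of 0.05 in limma. At an unadjusted p of 0.05 in limma, 2 were lower and 2 higher, where 398 of 14217 genes were lower and 277 higher. Vehicle 1 was the lowest array at all 7 probe sets named for RT1-A or RT1-CE genes with a mean of at least 6, by between 0.24 and 3.41 log2 units below the next array. RT1-CE12 (1388236_x_at), the brightest of them, read 12.77, 12.52, 13.02 and 12.98 in treated livers, against 9.85, 12.44, 12.75 and 13.02 in vehicle livers, and was singled out after its values were seen. Over these 7 the median difference was 0.55, and 0.09 without vehicle 1. The treated mean was higher at all 7, and at 4 of them without vehicle 1. Without it the RT1-CE5 probe sets 1370972_x_at, 1371209_at and 1388255_x_at were lower in treated livers (−0.19, −1.02 and −0.62). Vehicle 1 was at the same time the highest array for Tap2, Psmb8 and Psmb9. RT1-CE16 (1370463_x_at), with the smallest unadjusted p on the higher side, averaged 9.60 ± 0.24 in treated and 9.21 ± 0.18 in vehicle livers (difference 0.39, and 0.49 without the near-identical pair). RT1-M3-1 (1387205_at), a nonclassical class I gene, read 6.39, 6.64, 6.56 and 7.24 in treated livers, against 7.37, 7.64, 7.96 and 7.11 in vehicle livers, with overlap at treated 4 and vehicle 4 (difference −0.81, SE 0.23, limma adjusted p = 0.979, and −0.90 without the near-identical pair).

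Regulators of the pathway were mixed, with 11 of 21 lower and a median of −0.03, also without the near-identical pair. The median was 0.05 without vehicle 2 and −0.09 without vehicle 4. Ciita (1379381_at), the class II counterpart of Nlrc5, read 4.24, 4.76, 4.52 and 4.69 in treated livers, against 7.62, 6.88, 6.52 and 3.98 in vehicle livers. All vehicle livers but vehicle 4 were above the treated ones. The difference at this Ciita probe set was −1.70 (SE 0.66, limma adjusted p = 0.979), and −2.44 without the near-identical pair (limma adjusted p = 0.149 on 6 arrays). The second Ciita probe set, 1369214_a_at, read 4.64, 4.61, 4.66 and 4.39 in treated livers, against 5.22, 5.31, 4.58 and 4.76 in vehicle livers. Its difference was smaller, −0.39, and −0.49 without the near-identical pair, and vehicle 3 lay within the treated range. Nlrc5 differed by 0.05, and by 0.13 without that pair. Ifngr1 (1369956_at), a chain of the interferon gamma receptor, read 8.83, 9.30, 9.02 and 9.52 in treated livers, against 10.28, 9.85, 9.90 and 9.11 in vehicle livers (difference −0.62, limma adjusted p = 0.979, and −0.80 without the near-identical pair). For Ifng itself (1370790_at), the cytokine that induces the members, every array lay between 2.73 and 3.03, below the lower quartile of every array.

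Markers of leukocytes and of several other liver cell types had lower means in treated livers. Of the 10 pan-leukocyte genes, 10 were lower (median −0.72, and −0.87 without the near-identical pair), where 48.4% of 14217 genes were. In limma 0 of 10 passed an adjusted p of 0.05. On the lower side 5 had an unadjusted p under 0.05, where 398 of 14217 genes did by their brightest probe set. On the lower side 1 lay without overlap, where 0.58% of all probe sets did. They had a list mean between 6.55 and 7.64 in treated and between 6.94 and 8.05 in vehicle livers. Cd52, one of these genes, lay below the lower quartile. Summed on the linear scale, their level was between 10.37 and 11.86 in treated and between 10.87 and 12.13 in vehicle livers (log2). Coro1a and Cytip are named because they had the smallest unadjusted p of this list. Coro1a (1369964_at), an actin regulator of leukocytes, averaged 6.34 ± 0.36 in treated and 7.60 ± 0.89 in vehicle livers. Cytip (1386410_at), a leukocyte adhesion regulator and the gene without overlap, averaged 4.37 ± 0.22 in treated and 5.11 ± 0.44 in vehicle livers. Their differences were −1.26 and −0.74, and −1.60 and −0.83 without the near-identical pair. Of T and natural killer cell genes, 17 of 19 were lower (median −0.14, with 4 below the lower quartile, −0.19 without the near-identical pair and −0.23 without vehicle 3), and of B and plasma cell genes 6 of 8 (median −0.36, and −0.48 without that pair). Of macrophage and dendritic cell genes 14 of 17 were lower, with a median of −0.43 that was −0.62 without the pair, −0.14 without treated 1 and −0.70 without treated 4, and −1.49, −0.09 and −0.03 by hybridization group. Stellate cell and myofibroblast genes were lower for 10 of 11 (median −0.76, and −1.01 without the pair). Endothelial genes were lower for 10 of 10 (median −0.55, and −0.73 without the pair). Of these, 4 had an unadjusted p under 0.05 in limma, where 398 of 14217 genes did on the lower side. Without overlap lay 1, where 0.58% of all probe sets did. Bile duct genes were lower for 6 of 6, with a median of −0.31 that was −0.44 without the pair, −0.60 without treated 4 and −0.13 without treated 2. Hepatocyte genes were lower for 9 of 14 (median −0.04, −0.05 without the pair and −0.00021 without treated 1). In each of these lists 0 genes passed an adjusted p of 0.05 in limma. Lower at an unadjusted p under 0.05 were 3 T and natural killer, 2 B and plasma, 2 macrophage and dendritic and 2 stellate cell genes. Of bile duct and hepatocyte genes 0 were. Without overlap on the lower side lay 1 B and plasma cell gene and 1 hepatocyte gene. Vehicle 1 was highest both in the pan-leukocyte mean (8.05) and in the mean of the members after scaling each to unit SD (0.86). Treated 1 was lowest in the pan-leukocyte mean (6.55), and among the members it was lowest for B2m, second lowest for Tap1 and Psmb9, second highest for Psmb10 and highest for Nlrc5, with a scaled member mean of 0.01. Treated 2 had a pan-leukocyte mean of 6.88 and the lowest scaled member mean (−1.23). The part of leukocytes and of the other cell types in the member values was not tested.

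**Figure D5:**
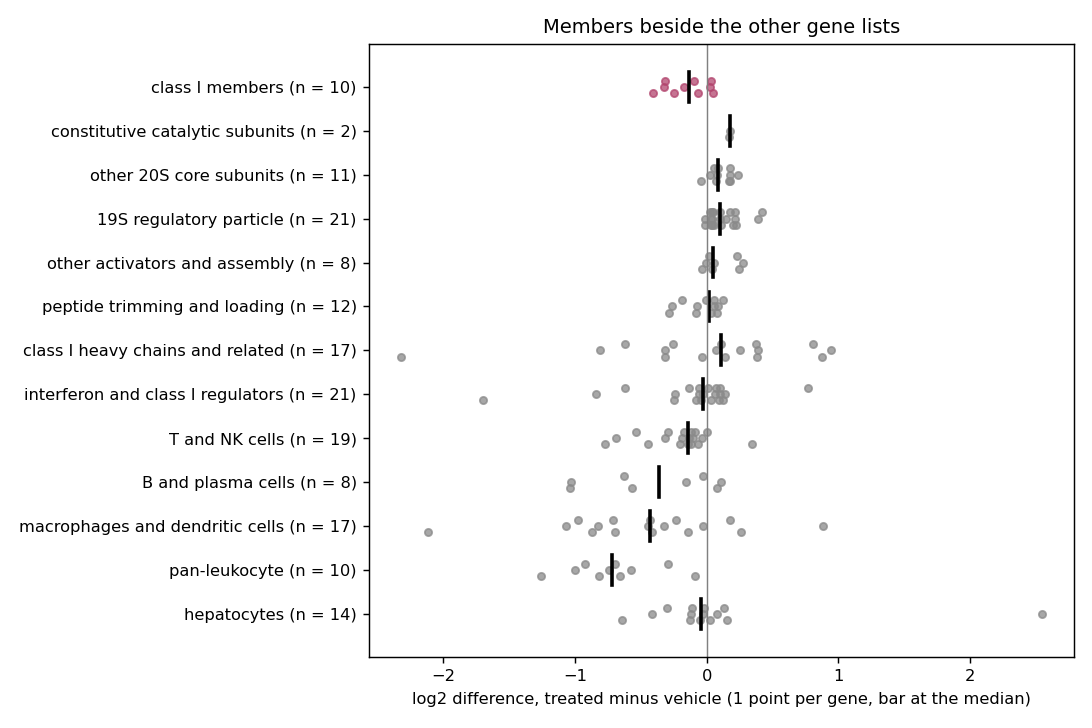
Log2 difference, treated minus vehicle, of each gene (1 point per gene, brightest probe set) in the class I members and in 12 other lists, with a bar at the list median and the number of measured genes beside each name. The member median is −0.13, the 20S and 19S medians are 0.09 and 0.10, and the pan-leukocyte median is −0.72.

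The members differed in how closely they followed each other over the 8 arrays. Psmb9, Tapbp and Psme1 correlated with the mean of the other members at r = 0.94, 0.90 and 0.90, and Tap2, Psmb8 and Psmb10 at 0.83, 0.79 and 0.69. The values for Psme2, B2m and Tap1 were 0.54, 0.32 and 0.22, and that of Nlrc5 was −0.01. These are descriptions over 8 arrays, of which a pair are near-copies, and all values share the array's normalization. Among 14207 other genes, the 8 whose pattern was most like the member mean were Arhgap18 (1390406_at, r = 0.992), Zcchc14, Rnf213, B3glct, Nisch, Duoxa1, Itgb5 and Zkscan3 (r = 0.979), with differences between −0.35 and −0.12, and between −0.42 and −0.17 without the near-identical pair. Rnf213 (1373514_at), a large interferon-inducible ubiquitin ligase, read 8.56, 8.06, 8.49 and 8.94 in treated livers, against 8.995, 8.74, 8.73 and 8.45 in vehicle livers. Treated 2 was lowest and vehicle 1 highest for it, as for Psmb9 and for the scaled member mean. The 8 genes were chosen for this pattern, so the shared order and the lower treated means follow from the choice. An interferon link was not tested.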

How the data were processed

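Per the labels' protocols, total RNA of frozen liver (20 µg) was reverse transcribed from the 3′ end and labelled as cRNA, so that signal depends on RNA integrity. Per the submitters' processing notes, the authors used affy and RMA, of which these notes give no version. The deposited log2 values, 1 array per sample, were used as they stand. Of 31099 rows, 57 control probe sets were left out. Names came from the platform annotation (20826 of 31042 probe sets had 1 symbol, 436 several and 9780 none listed). Arrays were grouped by sample title, and the design text counts 4 rats in each group. The number of arrays limits the precision, and no detection calls were used.

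The test was limma 3.58.1 (R 4.3.3; lmFit, eBayes, no covariates) on all 31042 probe sets with adjustment by Benjamini and Hochberg, and the threshold was an adjusted p of 0.05. On simulated arrays it recovered 88 of 200 changes of 1 log2 unit, with 4 false calls. Of 200 changes of 2 log2 units it recovered 173, with 15 false calls. The simulated arrays were drawn independently from the real means and SDs and held no near-identical pair. Smaller changes, such as those of the members, were not simulated. Pairs of subunits were compared by exact permutation over arrays. Of the 3 pairs planned, 2 were measured. Lists used the brightest probe set of a gene and got no test. Named genes were all member probe sets, the 2 genes with the smallest unadjusted p in each pathway list and in the pan-leukocyte list, and the 8 genes most like the member mean. RT1-CE12, RT1-CE5, Ifng and Cd52 were named outside this rule. Members, lists and alternatives were chosen with earlier results of these data known. Replicate numbers did not pair the arrays (correlation of deviations between −0.62 and 0.04). Promoters are from RefSeq (GRCr8).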

Additional observations from a re-analysis of the deposited data

Results flagged for a closer look

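One value stood far from the others of its group, among 30 groups of 4 values examined (13 probe sets and 2 subunit ratios in each group), where chance alone gives about 1 in 20. Psme2 read 10.89 on treated 4, against 10.52 to 10.57 on the 3 other treated arrays. Treated 4 also had the highest pan-leukocyte mean of the treated arrays, 7.64, against 6.55 to 6.88 on the others, and the part of this in the Psme2 value was not tested.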

How the results depend on the processing

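The count of probe sets called over the whole table was 0 by limma, with 1220 at an unadjusted p of 0.05. It was 3 without both near-identical arrays and between 0 and 11 when 1 array was left out, with 11 without vehicle 4, and no member was among them (smallest adjusted p of a member over all settings 0.515). Of the 13 member probe sets, between 7 and 11 had a lower treated mean when 1 array was left out, and their median difference ran from −0.14 to −0.02. The median of −0.07 was −0.12 after quantile normalization and −0.016 after median centring, with 10 and 8 of 13 lower, against an SD of 0.15 between arrays of a group. It was −0.13 over the 10 probe sets with a mean of at least 6 and −0.13 over gene means. It was −0.07 with trend and robust variances, the replicate block and the hybridization block. The replicate block changed no call (0 probe sets called). Psme2 was −0.037 after quantile normalization, and the dim Tap1 probe set was 0.0093 after median centring and 0.0068 without the near-identical arrays. With 1 array left out, signs turned for B2m 1371440_at (−0.13 to 0.027), Tapbp (−0.31 to 0.012), Psmb10 (−0.093 to 0.18), Psme1 1367663_at (−0.15 to 0.036), Psme1 1394006_at (−0.015 to 0.17), Psme2 (−0.063 to 0.064) and Nlrc5 (−0.096 to 0.12). The ratio of Psmb8 to Psmb5 ran from −0.54 to −0.27, and that of Psmb10 to Psmb7 from −0.37 to 0.070, and the cause was not tested. The filter at a mean of 6 left 10 of the 13 probe sets, without Nlrc5 and the dim probe sets of Tap1 and Psme1.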
